A study of Mus musculus with 36 samples.

Results

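The integrated stress response and the unfolded protein response were followed through 40 genes in the kidneys of cadmium-treated mice. The genes were taken from a named list and matched by gene symbol among the 55536 annotated genes of the count files. They fall into 19 genes of the ATF4 arm, 18 genes of the endoplasmic reticulum (ER) arm and 3 genes that encode the ER stress sensors themselves, and all 40 passed the filter on low counts. Whole-kidney RNA from 36 libraries was sequenced in 6 groups of 6. Mice of the C57BL/6 strain were either the type labelled b6j, described as normal, or the type labelled ob, described as ob/ob, which lack functional leptin and become obese. Each type was left untreated or given cadmium chloride (CdCl2) at 0.5 or 2 mg/kg, and the series title speaks of chronic cadmium accumulation. The labels used here give no route, duration, age or sex, and they do not say that each library is a separate animal, so p-values measure the spread between these libraries.

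The responses start from different signals. In the integrated stress response, kinases that sense amino acid shortage, double-stranded RNA, oxidative or heme stress, or misfolded protein in the ER phosphorylate the translation factor eIF2. General translation drops while the mRNA of the transcription factor ATF4 is translated better, and ATF4 then switches on genes for amino acid uptake and synthesis, transfer RNA charging and, with its partner CHOP (Ddit3), cell death. In the unfolded protein response, the sensors ATF6 and IRE1 (Ern1) raise ER chaperones, disulfide isomerases and ER-associated degradation through cleaved ATF6 and spliced XBP1, while the sensor PERK (Eif2ak3) acts on eIF2 and so feeds ATF4. Because ATF4 and XBP1 are controlled at translation and splicing, the level of their mRNA does not measure the activity of either protein.

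Every library held between 26783936 and 37244058 reads counted in genes. Levels are given as CPM, read counts brought to a common library size after scaling by the trimmed mean of M values, with the lowest and the highest library of a group and its median. A gene is described as higher, lower, risen or fallen when edgeR's quasi-likelihood test gave a Benjamini-Hochberg adjusted p below 0.05 over the 18180 genes tested, and log2 changes carry their standard error (SE). The metallothionein gene Mt1, which cadmium induces, rose in all 4 comparisons of a dose with its controls, from 3.57 (SE 0.15, adjusted p = 2.63e-19) in b6j at 0.5 mg/kg to 5.31 (SE 0.16, adjusted p = 6.77e-24) in ob at 2 mg/kg. In bulk tissue, fewer cells of a type and less RNA per cell cannot be told apart, and the 12 proximal tubule markers summed at 2 mg/kg to 14900 to 21200 CPM in b6j (untreated 26700 to 31400) and 4090 to 19000 CPM in ob (untreated 21700 to 26100). The part of this shift in the results that follow was not tested.

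In a pair of libraries the stress genes stood apart from those of the same group. Replicate 4 of the untreated b6j group was the highest of its group for 14 of the 19 ATF4 arm genes and the lowest for 9 of the 18 ER arm genes. Its Trib3 level was 16.3 CPM where the next library had 1.82, its Atf3 level 23.5 CPM against 2.24, and its Asns level 33.4 CPM against 8.74. This library had the lowest summed proximal tubule markers of its group, at 26700 CPM against 30300 to 31400 in the other 5, and the highest summed early response genes, at 197 CPM against 125 to 151. Its 8 tubular injury markers summed to 842 CPM, within the range of the other 5, a sum made up mostly of Spp1 and Clu. One of them, Havcr1 (KIM-1, a protein of injured proximal tubule), stood at 181 CPM against 2.15 to 13 in the other 5 controls and 112 to 232 in b6j at 2 mg/kg.

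Replicate 5 of the ob group at 2 mg/kg was the highest of its group for 11 ATF4 arm genes and 11 ER arm genes and the lowest for 5 and 3. It held 1030 CPM of Hspa5 where the next library had 526, 69.5 CPM of Ppp1r15a against 18.5, and 173 CPM of Psat1 against 49.5. Its proximal tubule markers summed to 4090 CPM against 13800 to 19000 in the other 5, its distal nephron markers to 1260 CPM against 3950 to 4770, and its tubular injury markers to 16000 CPM against 2180 to 3950. Its early response genes summed to 706 CPM against 151 to 240. Because both libraries bear on the groups compared, many results that rest on them are given with all 36 libraries and also without the library or libraries concerned.

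At 2 mg/kg the called genes of the ATF4 arm were mostly higher, and those of the ER arm in b6j were all lower. In b6j mice 6 ATF4 arm genes rose and 1 fell, while 7 ER arm genes fell and none rose, against 12.3% of all genes tested called higher and 11.4% called lower. In ob mice 13 ATF4 arm genes rose and none fell, while 2 ER arm genes rose and 1 fell, against 20.4% of all genes called higher and 18% called lower. The median log2 change of the ATF4 arm was 0.29 in b6j and 1.09 in ob, and that of the ER arm was -0.23 and 0.02, where the medians over all genes tested were 0.017 and 0.011.

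At 0.5 mg/kg fewer genes were called. In b6j mice none of the 40 genes was called, where 0.325% of all genes were, and the arm medians were 0.02 and 0.04. The quasi-likelihood test of edgeR gave 1 of the 40, Syvn1, an unadjusted p under 0.05 there, and DESeq2 and limma called 0. In ob mice 4 ATF4 arm genes rose and no ER arm gene was called, against 3.55% of all genes called higher and 4.28% called in either direction, and the arm medians were 0.47 and -0.01. Of the ER arm genes in ob, 4 had an unadjusted p under 0.05 with edgeR, and DESeq2 called 0 and limma 4. Fgf21 was at 0 in every ob control, so its change there has only a lower bound. Set at that bound it still lay above the ATF4 arm medians in ob, which therefore stayed at 0.47 and 1.09. The 6 treated libraries lay wholly above or below the controls for none of the 40 genes in b6j at the lower dose (1.05% of all genes tested) and for 9 at the higher dose (17.3%). For ob the numbers were 11 at the lower dose (5.68%) and 12 at the higher (17.1%).

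Without the pair of libraries that stood apart, more of the ATF4 arm was called. In b6j mice 5 ATF4 arm genes then rose at 0.5 mg/kg, with 0.91% of all genes called in either direction, and at 2 mg/kg 11 rose and 3 fell, with 35.1% of all genes called. In ob mice 13 rose at 0.5 mg/kg, with 9.9% of all genes called, and 15 rose at 2 mg/kg, with 38.4% called. The median of the ATF4 arm was then 0.19 and 0.44 in b6j at the lower and the higher dose and 0.46 and 0.61 in ob. The ER arm had 11 genes lower and 1 higher in b6j at 2 mg/kg, and 4 lower and 2 higher at that dose in ob, with medians of -0.26 and 0.01.

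**Figure D1:**
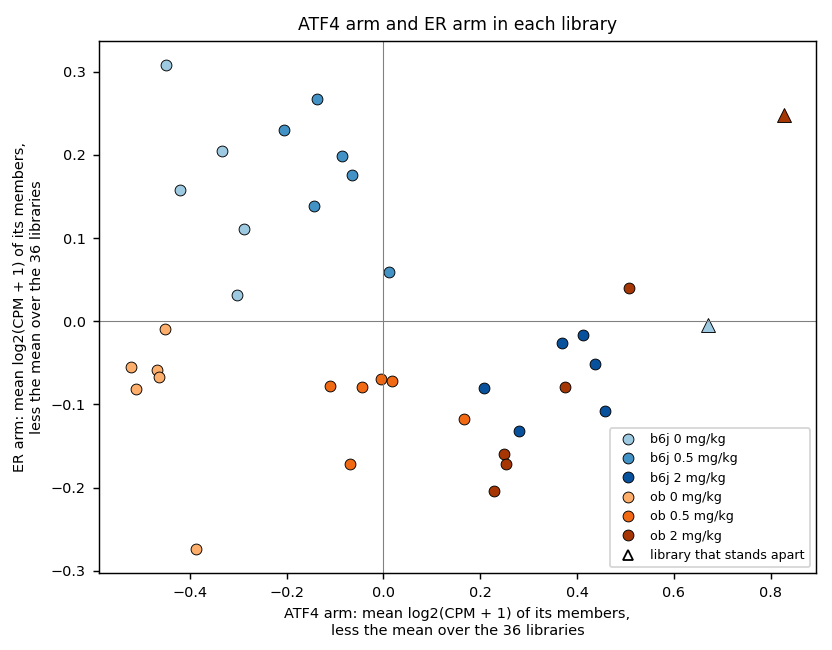
Each point is 1 library; the horizontal axis is the mean log2(CPM + 1) of the 19 ATF4 arm genes and the vertical axis that of the 18 ER arm genes, each less its mean over the 36 libraries, and triangles mark the pair of libraries that stood apart. On the ATF4 axis the ob controls run from -0.52 to -0.39 and the ob libraries at 2 mg/kg from 0.23 to 0.83, while on the ER axis the b6j libraries at 2 mg/kg run from -0.13 to -0.02 and the b6j controls from 0 to 0.31.

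Averaged over its genes, the ATF4 arm separated the doses in ob mice without overlap. Its mean log2(CPM + 1), relative to all 36 libraries, was -0.47 ± 0.05 (SD, n = 6) in ob controls, -0.01 ± 0.1 at 0.5 mg/kg and 0.41 ± 0.23 at 2 mg/kg. In b6j it was -0.19 ± 0.42 in controls, -0.1 ± 0.07 at 0.5 mg/kg and 0.36 ± 0.1 at 2 mg/kg. The control that stood apart, at 0.67, lay above every b6j library at 2 mg/kg. The remaining b6j controls ran from -0.45 to -0.288. They lay below all b6j libraries at 0.5 mg/kg (-0.205 to 0.012), which lay below all those at 2 mg/kg (0.207 to 0.457). For the ER arm the b6j means were 0.13 ± 0.11, 0.18 ± 0.07 and -0.07 ± 0.05 in the order of dose, and those of ob were -0.09 ± 0.09, -0.1 ± 0.04 and -0.05 ± 0.17. No test was made on these averages, since the genes were chosen with results of these data known.

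**Figure D2:**
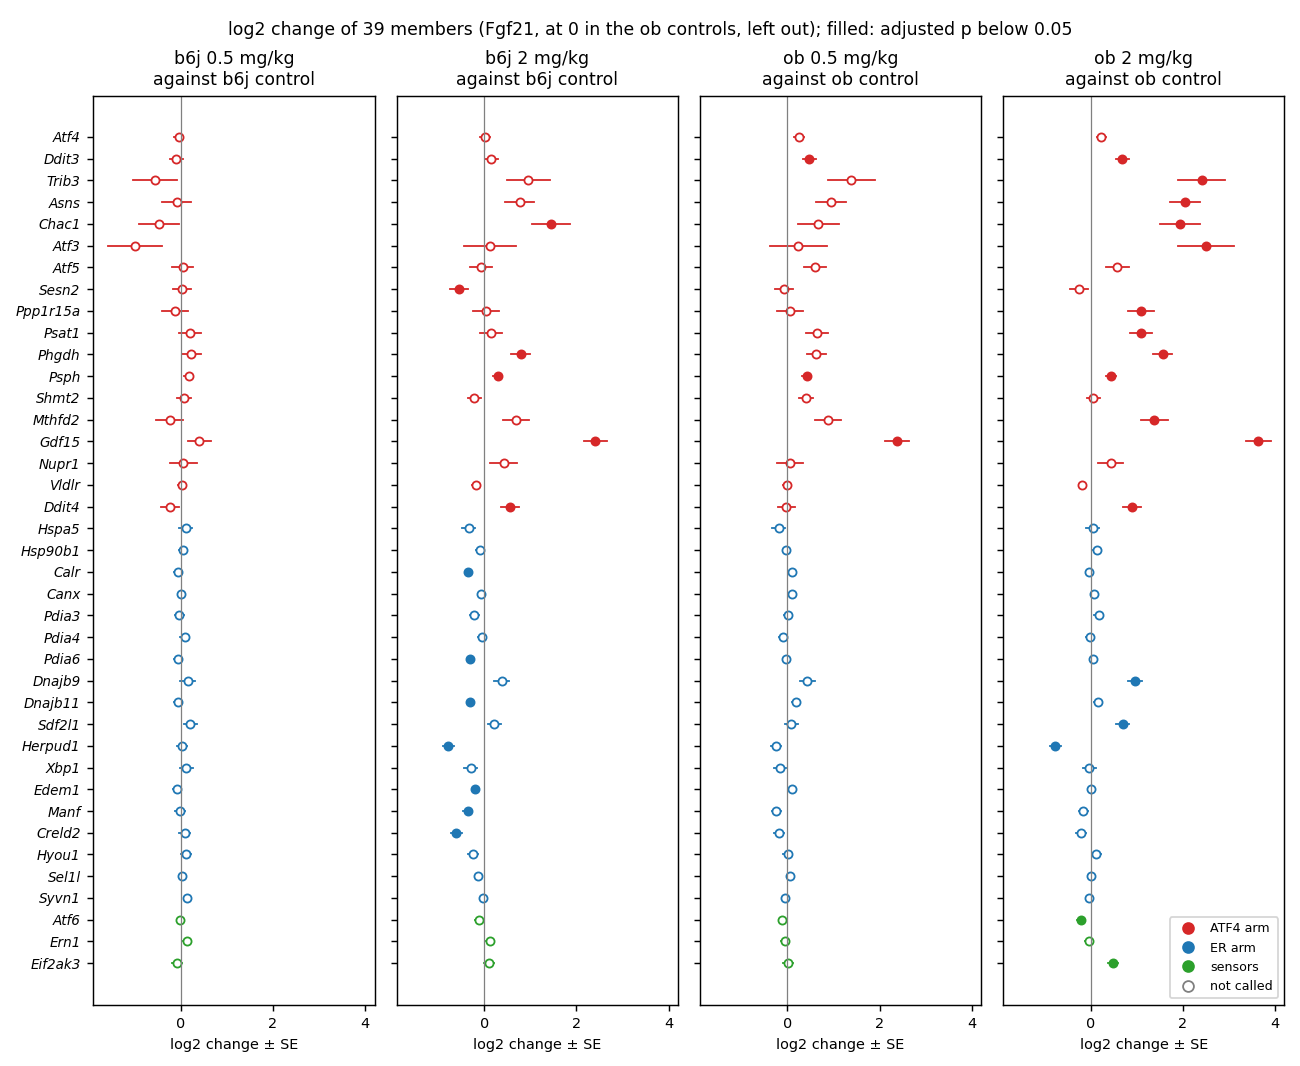
Points are the log2 changes of 39 genes with their SE in the 4 comparisons of a dose with its controls, filled where the adjusted p was below 0.05, in red for the ATF4 arm, blue for the ER arm and green for the sensors. Gdf15 reaches 3.63 in ob at 2 mg/kg, whereas the ER arm lies between -0.78 and 0.38 in b6j at 2 mg/kg.

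Genes of the ATF4 arm can be bound by ATF4 together with C/EBP proteins or CHOP at a composite element, spelled here TGATGNAA. Within 250 bases before the RefSeq gene start on GRCm38.p6, on either strand, the letters occurred at 6 of the 19 ATF4 arm genes, at 1 of the 16 ER arm genes with an entry and at 3.91% of 27025 genes. Of the 40 genes 37 had a promoter entry. The 4 windows shown first belong to genes whose levels the next paragraphs follow, and the fifth is the ER arm gene with the element, which fell. Capitals mark the 8 letters.
Asns: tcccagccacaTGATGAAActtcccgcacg
Atf3: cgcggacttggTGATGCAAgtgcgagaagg
Chac1: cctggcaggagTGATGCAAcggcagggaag
Fgf21: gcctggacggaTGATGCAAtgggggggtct
Herpud1: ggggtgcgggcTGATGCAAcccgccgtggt
These 30-base windows lie at chr6:7693214-7693243, minus strand (Asns), chr1:191183425-191183454, plus strand (Atf3), chr2:119351038-119351067, minus strand (Chac1), chr7:45615611-45615640, plus strand (Fgf21) and chr8:94386306-94386335, minus strand (Herpud1). The other 2 matches were at Nupr1 and Vldlr, of which neither was called in any of the 4 comparisons of a dose with its controls when all 36 libraries were used. A match describes letters only, and no binding was measured.

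Atf4 itself was not called in any comparison with controls when all libraries were used. Its mRNA stood at 97.5 to 149 CPM (median 102) in untreated b6j, 93.1 to 135 CPM (median 101) at 0.5 mg/kg and 102 to 115 CPM (median 111) at 2 mg/kg. The ob levels were 84.9 to 100 CPM (median 95.5) untreated, 107 to 117 CPM (median 114) at 0.5 mg/kg and 94.7 to 163 CPM (median 101) at 2 mg/kg. All 6 ob libraries at 0.5 mg/kg and 5 of 6 at 2 mg/kg lay above every ob control, but neither change was called, at 0.25 (adjusted p = 0.218) and 0.23 (adjusted p = 0.0733). Without the pair of libraries that stood apart, the change at 0.5 mg/kg was called, at 0.24 (adjusted p = 0.00835), and without b6j control replicate 4 alone that at 2 mg/kg was, at 0.24 (adjusted p = 0.036). Without replicate 5 of the ob group at 2 mg/kg it was not, at 0.10 (adjusted p = 0.366), nor without both libraries, at 0.10 (adjusted p = 0.218). In b6j the changes were -0.05 and 0.02, and the groups overlapped.

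Ddit3 encodes CHOP, the partner of ATF4 linked to cell death. It stood at 10.7 to 13.3 CPM (median 11.5) in ob controls, 13.9 to 20.6 CPM (median 15.4) at 0.5 mg/kg and 15.8 to 23.8 CPM (median 17.1) at 2 mg/kg, and both treated groups lay wholly above the controls. It rose at 2 mg/kg (log2 change 0.68, SE 0.14, adjusted p = 0.000217). At 0.5 mg/kg it passed narrowly (log2 change 0.47, SE 0.14, adjusted p = 0.0491), and the call ended when any of 28 of the 36 libraries was left out. In b6j the controls held 9.5 to 14.8 CPM (median 11.3) and the libraries at 2 mg/kg 8.51 to 16 CPM (median 13.6), with no call (log2 change 0.15, adjusted p = 0.486). Mars overlaps Ddit3 on the opposite strand. In counts made without strand, reads from any exon bases the genes share cannot be told apart.

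Trib3, a pseudokinase that ATF4 and CHOP induce and that holds ATF4 back, gave a b6j result that turned on a single control. In ob mice it stood at 0.886 to 1.51 CPM (median 1.27) untreated, 2.3 to 3.87 CPM (median 3.27) at 0.5 mg/kg and 3.87 to 11.9 CPM (median 5.76) at 2 mg/kg, and the 3 groups lay in order of dose, the treated ones meeting at 3.87 CPM. The rise at 2 mg/kg was called (log2 change 2.41, SE 0.51, adjusted p = 0.000293), and that at 0.5 mg/kg was not (log2 change 1.38, adjusted p = 0.131). The b6j levels were 0.682 to 16.3 CPM (median 1.31) untreated, 1.58 to 3.98 CPM (median 2.14) at 0.5 mg/kg and 4.38 to 9.6 CPM (median 7.57) at 2 mg/kg. Replicate 4 of the untreated group lay above all 6 libraries at 2 mg/kg, and the change was not called (log2 change 0.96, adjusted p = 0.144). Without that library it was called, at 2.57 (adjusted p = 5.54e-08), as was the change in ob at 0.5 mg/kg, at 1.38 (adjusted p = 0.00128). Without both libraries the change in b6j at 0.5 mg/kg turned from -0.56 to 1.06 (adjusted p = 0.0368).

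**Figure D3:**
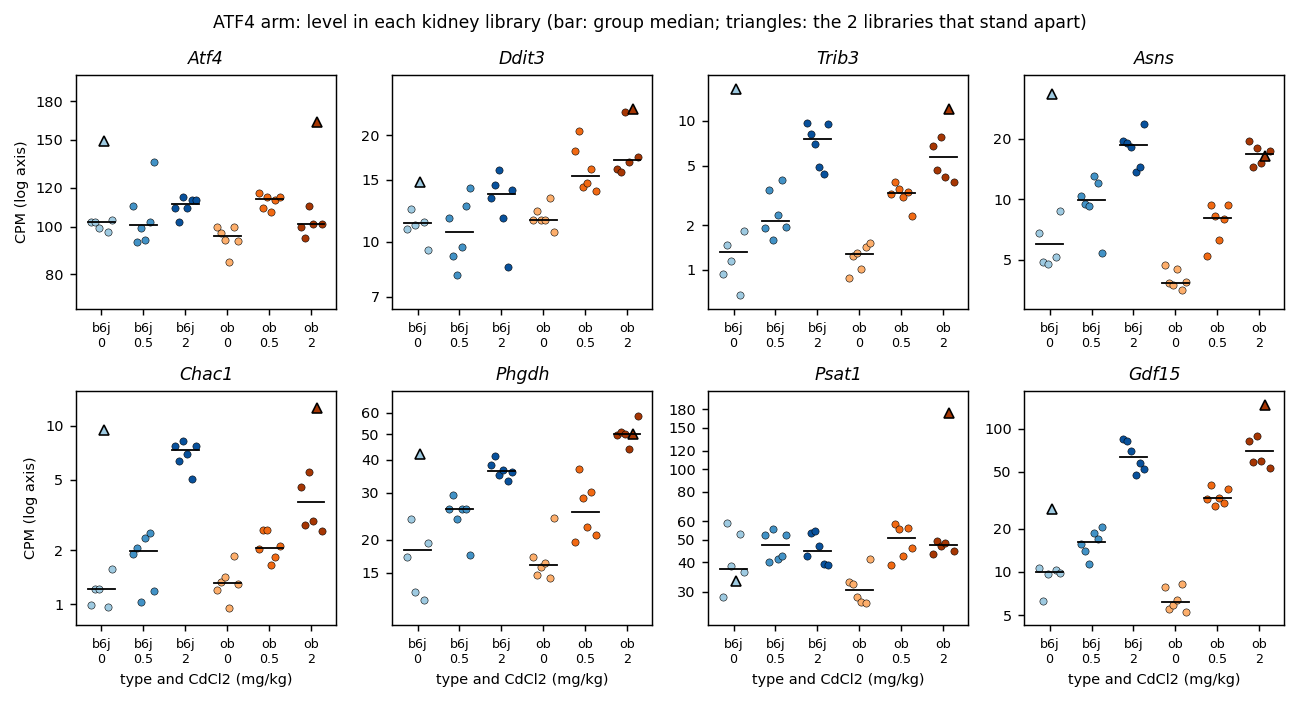
Each point is the CPM of 1 library on a log axis for 8 ATF4 arm genes, by type and CdCl2 dose, with a bar at the group median and triangles for the pair of libraries that stood apart. Gdf15 climbs from 5.29 to 8.24 CPM in ob controls to between 53.1 and 147 CPM at 2 mg/kg, while Atf4 stays between 84.9 and 163 CPM in all 6 groups.

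Atf3, a stress-induced repressor of the same family, also rested on those libraries. It stood at 1.1 to 1.92 CPM (median 1.49) in ob controls, 0.756 to 2.54 CPM (median 1.84) at 0.5 mg/kg and 2.39 to 28.5 CPM (median 4.75) at 2 mg/kg, and it rose at 2 mg/kg (log2 change 2.5, SE 0.61, adjusted p = 0.00144). Without replicate 5 of that group the change was 1.61 (adjusted p = 0.0173). In b6j mice the level was 0.806 to 23.5 CPM (median 1.77) in controls and 4.11 to 8.53 CPM (median 4.91) at 2 mg/kg, which gave 0.13 (adjusted p = 0.906) with all libraries and 1.82 (adjusted p = 0.00287) without control replicate 4. The immediate early response genes moved in the same groups. At 2 mg/kg 12.3% of all genes rose in b6j and 20.4% in ob, while 4 and 7 of the 9 early response genes tested rose. Their part in the Atf3 result was not tested.

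Of the other regulators, Ppp1r15a (GADD34), which brings back translation by directing a phosphatase to eIF2, rose in ob at 2 mg/kg. It stood at 9.65 to 12.8 CPM (median 10.4) in ob controls and 9.32 to 69.5 CPM (median 14.9) at 2 mg/kg (log2 change 1.09, SE 0.28, adjusted p = 0.0023), and 5 of 6 libraries at 2 mg/kg lay above all controls. The change was 0.38 (adjusted p = 0.0415) without replicate 5. In b6j the controls held 11.2 to 23.3 CPM (median 12.6) and the libraries at 2 mg/kg 12.2 to 16 CPM (median 14.6), a change of 0.04 (adjusted p = 0.944).

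Sesn2, a sestrin that restrains mTORC1 signalling, was the only ATF4 arm gene that fell against controls with all libraries. It stood at 73.5 to 153 CPM (median 92.3) in b6j controls and 61.4 to 97.9 CPM (median 70.1) at 2 mg/kg (log2 change -0.54, SE 0.19, adjusted p = 0.0321), with the groups overlapping, and the call ended without any 1 of 6 libraries, b6j controls 1 and 6 and replicates 1, 2, 5 and 6 at 2 mg/kg. In ob mice the level was 60.5 to 95.1 CPM (median 75.7) untreated and 43.2 to 90.4 CPM (median 63.1) at 2 mg/kg, and the change of -0.25 (adjusted p = 0.294) was not called. Ddit4 (REDD1), another brake on mTORC1, moved the other way. It rose in b6j, with 19.6 to 33 CPM (median 23) untreated and 28.8 to 42 CPM (median 35.5) at 2 mg/kg (log2 change 0.56, SE 0.19, adjusted p = 0.0318), a call that ended without any 1 of 6 libraries, b6j controls 2, 3, 5 and 6 and replicates 1 and 2 at 2 mg/kg. It also rose in ob, with 16.9 to 38.3 CPM (median 23.9) untreated and 33.4 to 96.4 CPM (median 38.2) at 2 mg/kg (log2 change 0.90, SE 0.19, adjusted p = 0.00031), where the change was 0.59 (adjusted p = 0.00116) without replicate 5.

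Genes of amino acid synthesis rose next to these regulators. Asns makes asparagine. In ob mice it stood at 3.55 to 4.74 CPM (median 3.85) in controls, 5.24 to 9.36 CPM (median 8.12) at 0.5 mg/kg and 14.4 to 19.5 CPM (median 16.9) at 2 mg/kg, 3 groups without overlap, and the change at 2 mg/kg was called (log2 change 2.05, SE 0.32, adjusted p = 4.72e-06). At 0.5 mg/kg it was 0.94 (adjusted p = 0.0966), and 0.93 (adjusted p = 0.000689) without b6j control replicate 4, a library of neither group compared. Levels in b6j were 4.78 to 33.4 CPM (median 6) in controls, 5.44 to 13 CPM (median 9.98) at 0.5 mg/kg and 13.6 to 23.7 CPM (median 18.7) at 2 mg/kg. Replicate 4, at 33.4 CPM, lay above every treated b6j library, and the change at 2 mg/kg was 0.77 (adjusted p = 0.0649) with it and 1.57 (adjusted p = 7.48e-08) without it. At 0.5 mg/kg the change turned from -0.09 to 0.72 (adjusted p = 0.0388) without both libraries.

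Serine is made from a glycolytic intermediate by Phgdh, Psat1 and Psph in turn. Phgdh rose in both types at 2 mg/kg. It stood at 14.3 to 24.1 CPM (median 16.1) in ob controls, 19.7 to 36.8 CPM (median 25.5) at 0.5 mg/kg and 43.9 to 58.2 CPM (median 50.1) at 2 mg/kg (log2 change 1.56, SE 0.2, adjusted p = 1.36e-07), and at 11.9 to 41.9 CPM (median 18.4) in b6j controls and 33.3 to 41.2 CPM (median 36.3) at 2 mg/kg (log2 change 0.79, SE 0.2, adjusted p = 0.00266). All 6 treated ob libraries at 2 mg/kg lay above the ob controls, while in b6j control replicate 4, at 41.9 CPM, lay above all 6. The ob change at 0.5 mg/kg was not called with all libraries. It was called without any 1 of 6, among them b6j control replicate 4 and ob replicate 5 at 2 mg/kg (log2 change 0.62 to 0.75, adjusted p = 0.0117 to 0.048). Psph, the last step, also rose in both types. It stood at 12 to 14.6 CPM (median 14.1) untreated and 16 to 17.7 CPM (median 16.8) at 2 mg/kg in b6j (log2 change 0.29, SE 0.1, adjusted p = 0.0324). Levels in ob were 12.7 to 18.8 CPM (median 15.8) untreated, 19.6 to 23.3 CPM (median 20.7) at 0.5 mg/kg (log2 change 0.42, SE 0.1, adjusted p = 0.00851) and 15.2 to 24.7 CPM (median 22.6) at 2 mg/kg (log2 change 0.44, SE 0.1, adjusted p = 0.000627). The b6j call ended without any 1 of 5 libraries, b6j controls 3 and 6 and replicates 4, 5 and 6 at 2 mg/kg. Psph overlaps Cct6a on the opposite strand, and reads from any exon bases the genes share cannot be told apart.

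Psat1, the middle step, was not called in b6j. It stood at 28.6 to 58.8 CPM (median 37.6) in b6j controls and 38.8 to 54.3 CPM (median 44.8) at 2 mg/kg, with no call (log2 change 0.15, adjusted p = 0.719). Among ob libraries it stood at 26.9 to 41.5 CPM (median 30.5) untreated, 38.8 to 58.4 CPM (median 51) at 0.5 mg/kg (log2 change 0.65, adjusted p = 0.133) and 43.5 to 173 CPM (median 47.5) at 2 mg/kg (log2 change 1.10, SE 0.24, adjusted p = 0.000438), and without replicate 5 the last change was 0.56 (adjusted p = 0.00161). The ob change at 0.5 mg/kg was called without replicate 5 at 2 mg/kg, at 0.64 (adjusted p = 0.00134). All 6 ob libraries at 2 mg/kg lay above the ob controls. Whether the Psat1 response differed between the types was tested and not called, at 0.95 (adjusted p = 0.129).

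One-carbon units from serine pass through mitochondrial enzymes. Mthfd2 rose in ob at 2 mg/kg, with 3.59 to 5.06 CPM (median 4.89) untreated and 7.98 to 15.2 CPM (median 12.4) at 2 mg/kg (log2 change 1.38, SE 0.29, adjusted p = 3e-04), with 7.45 to 9.44 CPM (median 8.54) at 0.5 mg/kg (log2 change 0.88, adjusted p = 0.0871), and both treated groups lay above all controls. Leaving out b6j control replicate 4 or ob replicate 5 at 2 mg/kg gave a call at 0.5 mg/kg (0.87, adjusted p = 0.000113 to 0.0479). Among b6j libraries Mthfd2 stood at 4.26 to 26.1 CPM (median 5.07) untreated and 10.4 to 16.6 CPM (median 14) at 2 mg/kg. That change was 0.69 (adjusted p = 0.0744) with all libraries and 1.47 (adjusted p = 7.99e-09) without control replicate 4, and at 0.5 mg/kg it turned from -0.24 to 0.53 (adjusted p = 0.0461) without both libraries. Shmt2, which feeds the same step, was the most abundant gene of the arm per length in both untreated groups, at 94.7 CPM per kb in b6j and 65.9 in ob, and was not called in any of the 4 comparisons of a dose with its controls. Without the pair of libraries it was lower in b6j at 2 mg/kg, at -0.23 (adjusted p = 0.019), and higher in ob at the same dose, at 0.24 (adjusted p = 0.0146).

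Chac1, which breaks down glutathione and is among the most responsive targets of ATF4 and CHOP, rose in both types at 2 mg/kg. In b6j it stood at 0.966 to 9.42 CPM (median 1.21) in controls, 1.03 to 2.5 CPM (median 1.99) at 0.5 mg/kg and 5.05 to 8.21 CPM (median 7.33) at 2 mg/kg (log2 change 1.45, SE 0.42, adjusted p = 0.00981). Only control replicate 4, at 9.42 CPM, overlapped the treated libraries, and without it the change was 2.55 (adjusted p = 1.85e-07). In ob it stood at 0.948 to 1.86 CPM (median 1.31) untreated, 1.65 to 2.6 CPM (median 2.08) at 0.5 mg/kg and 2.56 to 12.6 CPM (median 3.74) at 2 mg/kg (log2 change 1.94, SE 0.43, adjusted p = 0.000565), with a change of 1.46 (adjusted p = 0.00361) without replicate 5. The difference between the types at 2 mg/kg was 0.49 (adjusted p = 0.713) with all libraries and turned to -1.10 (adjusted p = 0.0341) without both, the larger rise then being in b6j.

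Both secreted hormones of the arm rose at 2 mg/kg in both types. Gdf15, a signal of tissue stress that lowers food intake, had the largest change in ob among the genes with counts in every ob control. The ob levels were 5.29 to 8.24 CPM (median 6.14) in controls and 29 to 40.6 CPM (median 32.6) at 0.5 mg/kg (log2 change 2.37, SE 0.26, adjusted p = 3.11e-08) and 53.1 to 147 CPM (median 70.3) at 2 mg/kg (log2 change 3.63, SE 0.27, adjusted p = 7.44e-13), and the 3 groups did not overlap. The b6j levels were 6.24 to 27.3 CPM (median 10.1) in controls and 11.4 to 20.7 CPM (median 16.3) at 0.5 mg/kg (log2 change 0.40, adjusted p = 0.992) and 47.6 to 84.4 CPM (median 63.7) at 2 mg/kg (log2 change 2.41, SE 0.25, adjusted p = 5.59e-09), and all 6 libraries at 2 mg/kg lay above all controls. Gdf15 was the only one of the 40 genes whose response at 0.5 mg/kg differed between the types (log2 change 1.98, SE 0.35, adjusted p = 0.0026), where 0.385% of all genes were called. The difference remained at 1.57 (adjusted p = 0.000103) without both libraries, with 1.31% of all genes called, when Gdf15 was also called in b6j at 0.5 mg/kg, at 0.79 (adjusted p = 0.0092). At 2 mg/kg it was 1.23 (adjusted p = 0.0545) with all libraries.

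Fgf21, a hormone of fasting and mitochondrial stress, was near the limit of detection. It had no read in any ob control, 3 to 10 reads per library at 0.5 mg/kg and 2 to 16 reads at 2 mg/kg. A floor of 3 counts over the whole control group stood at 0.0159 CPM. Against it the pooled level was at least 11.3-fold higher at 0.5 mg/kg and at least 17.2-fold higher at 2 mg/kg. These bounds use unscaled library totals and were not tested. The quasi-likelihood test of edgeR, made on the group means, called Fgf21 at both doses (adjusted p = 0.0323 and 0.00188). The call at 0.5 mg/kg ended without any 1 of 8 libraries, the 6 ob controls and replicates 1 and 5 at 0.5 mg/kg. In b6j, control replicate 4 held 0.497 CPM and the other 5 controls held no read, whereas the libraries at 2 mg/kg held 0.29 to 0.834 CPM (median 0.505) in 10 to 26 reads (log2 change 2.60, SE 0.91, adjusted p = 0.0362). That call ended without any 1 of 8 libraries, the b6j controls other than replicate 4 and replicates 1, 2 and 3 at 2 mg/kg.

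The remaining 4 genes of the arm were not called in any of the 4 comparisons. Atf5, a relative of ATF4, stood at a log2 change of 0.60 (adjusted p = 0.178) in ob at 0.5 mg/kg and 0.58 (adjusted p = 0.0523) at 2 mg/kg. It passed at both doses without the pair of libraries, at 0.59 (adjusted p = 0.000128) and 0.72 (adjusted p = 1.27e-06), as it did in b6j at 2 mg/kg, at 0.44 (adjusted p = 0.00134). In b6j the level was 14.6 to 19.9 CPM at 0.5 mg/kg and 14.3 to 21.4 CPM at 2 mg/kg. Control replicate 4 held 43.6 CPM, and the remaining b6j controls held 10.6 to 13.7 CPM. Atf5 overlaps Nup62 on the opposite strand, and reads from any exon bases the genes share cannot be told apart. Nupr1 and the lipoprotein receptor gene Vldlr, which hold the composite element, and Shmt2 ranged from -0.21 to 0.43 over the 4 comparisons. Vldlr was lower in b6j at 2 mg/kg without the pair of libraries, at -0.16 (adjusted p = 0.0296).

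Genes of the ER arm were mostly abundant in untreated kidney. Per kilobase of exon, the arm's median gene stood at 38 CPM in b6j controls and 30.6 in ob controls, against 6.65 and 5.15 for the ATF4 arm. Calr was the most abundant in b6j, at 237 CPM per kb, and Herpud1 in ob, at 215 CPM per kb. Genes of this arm are switched on by ATF6 and XBP1 at the ER stress element, spelled here as CCAAT and CCACG with 9 bases of any kind between them. The letters occurred on either strand within 250 bases before the start at 7 of the 16 ER arm genes with an entry (Calr, Canx, Creld2, Hsp90b1, Hspa5, Pdia6 and Syvn1), at none of the 19 ATF4 arm genes and at 0.13% of 27025 genes. Hyou1 and Manf had no entry. The 5 genes shown are those of the 7 with the element that the next paragraphs describe, Hsp90b1 with both of its copies, and capitals mark the element.
Hspa5: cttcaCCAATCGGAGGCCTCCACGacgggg
Hsp90b1: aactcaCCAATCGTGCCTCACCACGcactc
Hsp90b1: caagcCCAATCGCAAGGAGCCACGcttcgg
Calr: tatgggCCAATGAGGGTCGACCACGcgttg
Pdia6: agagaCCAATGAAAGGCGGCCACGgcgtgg
Creld2: tgtggaCCAATTGAGGCTCGCCACGagaag
They lie at chr2:34772020-34772049, plus strand (Hspa5), chr10:86705527-86705556, plus strand and chr10:86705632-86705661, minus strand (Hsp90b1), chr8:84847069-84847098, plus strand (Calr), chr12:17266486-17266515, plus strand (Pdia6) and chr15:88819515-88819544, minus strand (Creld2). In b6j at 2 mg/kg the 7 genes with the letters had a median log2 change of -0.3 with 3 lower, and the 9 with an entry but without them had a median of -0.2 with 3 lower. In ob at 2 mg/kg the medians were 0.04 with no gene called and 0.01 with 2 higher and 1 lower.

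Hspa5 (BiP), the main HSP70 chaperone of the ER and the usual marker of its stress, was not called against controls with all libraries. In b6j mice the level was 501 to 718 CPM (median 585) in controls, 587 to 685 CPM (median 662) at 0.5 mg/kg and 385 to 529 CPM (median 482) at 2 mg/kg, and 4 of 6 libraries at 2 mg/kg lay below all controls. The change was -0.33 (adjusted p = 0.0867) with all libraries and -0.35 (adjusted p = 0.0014) without the pair that stood apart. In ob mice the level was 423 to 589 CPM (median 552) untreated, 421 to 524 CPM (median 474) at 0.5 mg/kg and 412 to 1030 CPM (median 457) at 2 mg/kg, where the highest value was replicate 5. The change at 2 mg/kg was 0.04 (adjusted p = 0.861) with that library and turned to -0.23 (adjusted p = 0.0306) without it, a fall.

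Hsp90b1 (GRP94), the HSP90 chaperone of the ER, was not called in either type. It stood at 223 to 288 CPM (median 266) in b6j controls and 222 to 262 CPM (median 249) at 2 mg/kg (log2 change -0.09, adjusted p = 0.448), and 196 to 253 CPM (median 244) in ob controls and 221 to 302 CPM (median 260) at 2 mg/kg (log2 change 0.14, adjusted p = 0.145). The groups overlapped in both types. The SE of both changes was 0.08.

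The lectin chaperone Calr (calreticulin) fell in b6j at 2 mg/kg without overlap. It stood at 608 to 755 CPM (median 686) in controls, 614 to 707 CPM (median 640) at 0.5 mg/kg and 520 to 567 CPM (median 530) at 2 mg/kg (log2 change -0.35, SE 0.07, adjusted p = 0.000502). Levels in ob were 407 to 557 CPM (median 498) untreated and 376 to 541 CPM (median 493) at 2 mg/kg (log2 change -0.04, adjusted p = 0.729). Its partner Canx and the disulfide isomerases Pdia3 and Pdia4 were not called at any dose in either type with all libraries, and Pdia3 was lower in b6j at 2 mg/kg without the pair that stood apart, at -0.25 (adjusted p = 0.00257). The isomerase gene Pdia6 fell in the same comparison and stood at 211 to 253 CPM (median 226) untreated and 173 to 198 CPM (median 187) at 2 mg/kg in b6j (log2 change -0.30, SE 0.07, adjusted p = 0.00203), again without overlap. Among ob libraries it stood at 171 to 212 CPM (median 188) untreated and 174 to 242 CPM (median 193) at 2 mg/kg (log2 change 0.05, adjusted p = 0.583).

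**Figure D4:**
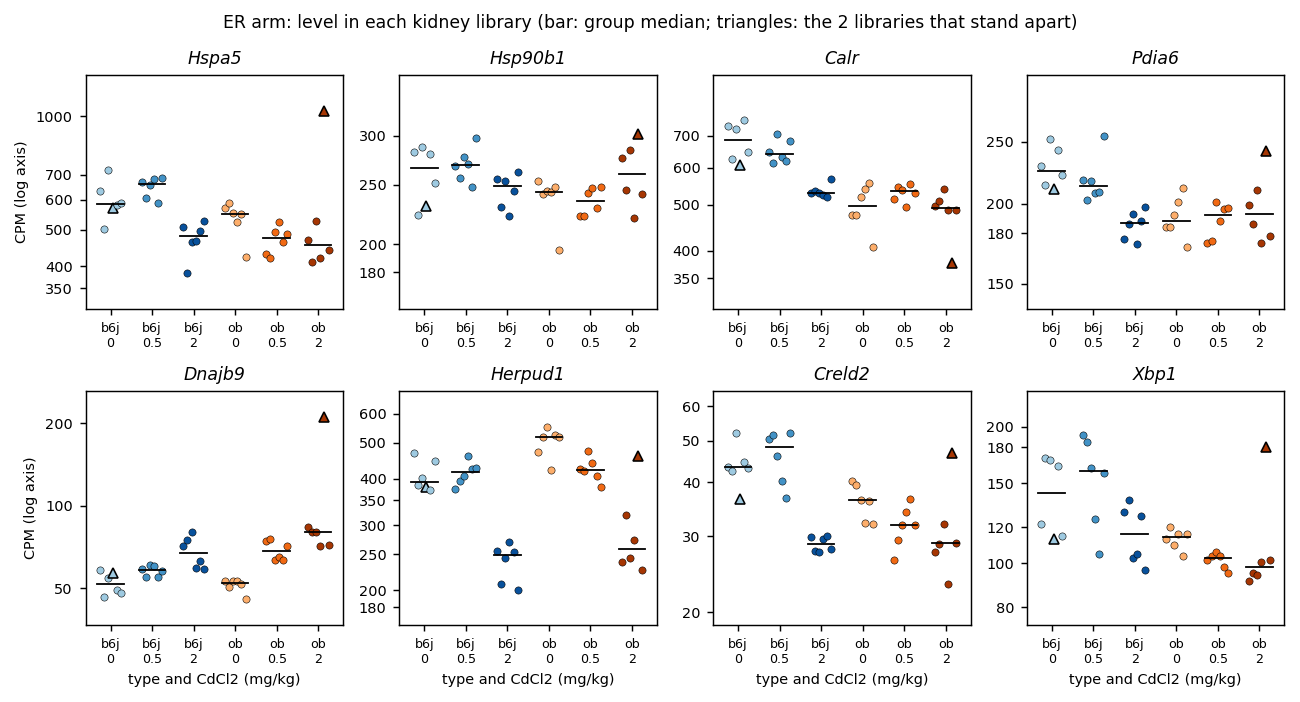
Each point is the CPM of 1 library on a log axis for 8 ER arm genes, by type and CdCl2 dose, with a bar at the group median and triangles for the pair of libraries that stood apart. Herpud1 at 2 mg/kg lies at 201 to 270 CPM in b6j, below all b6j controls, and Hspa5 in ob at 2 mg/kg reaches 1030 CPM in replicate 5.

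BiP works with J-domain co-chaperones. Dnajb11 (ERdj3), which hands unfolded clients to BiP, stood at 88 to 116 CPM (median 102) in b6j controls and 75.6 to 98.5 CPM (median 81.5) at 2 mg/kg, a fall (log2 change -0.30, SE 0.08, adjusted p = 0.00345). In ob it stood at 58.6 to 78.2 CPM (median 66.8) untreated and 67.9 to 84.6 CPM (median 74.2) at 2 mg/kg (log2 change 0.16, adjusted p = 0.0877). It was the only one of the 40 genes whose response at 2 mg/kg differed between the types with all libraries (log2 change 0.46, SE 0.11, adjusted p = 0.0174), where 2.07% of all genes were called. Without the pair of libraries, with 4.81% of all genes called, the difference was 0.47 (adjusted p = 0.00433), and Calr, Pdia3, Pdia6, Shmt2 and Chac1 were called too.

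Dnajb9 (ERdj4), a target of spliced XBP1 that holds IRE1 inactive, was 1 of the 2 ER arm genes that rose. It stood at 45.8 to 53.1 CPM (median 52.3) in ob controls and 63.4 to 75.5 CPM (median 68.1) at 0.5 mg/kg (log2 change 0.43, adjusted p = 0.148) and 71.4 to 210 CPM (median 80) at 2 mg/kg (log2 change 0.96, SE 0.16, adjusted p = 1.45e-05), and both treated groups lay wholly above the controls. Without replicate 5 the changes were 0.42 (adjusted p = 6.66e-05) and 0.60 (adjusted p = 2.81e-08), both called. In b6j all 6 libraries at 2 mg/kg, at 58.9 to 80.1 CPM (median 67.2), lay above the controls, at 46.7 to 58.3 CPM (median 52), with a change of 0.38 (adjusted p = 0.0853), and 0.37 (adjusted p = 6.2e-05) without that library. Sdf2l1, which works with BiP and the J-domain proteins, was the other: it rose in ob, with 6.58 to 10 CPM (median 8.88) untreated and 9.2 to 20.6 CPM (median 12.7) at 2 mg/kg (log2 change 0.69, SE 0.14, adjusted p = 0.000199), and in b6j it stood at 8.36 to 13.5 CPM (median 10.6) untreated and 9.68 to 15.5 CPM (median 12.7) at 2 mg/kg (log2 change 0.22, adjusted p = 0.273).

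Herpud1, a scaffold of the degradation complex in the ER membrane, fell furthest of the arm in both types. It stood at 373 to 470 CPM (median 393) in b6j controls, 376 to 461 CPM (median 417) at 0.5 mg/kg and 201 to 270 CPM (median 249) at 2 mg/kg (log2 change -0.78, SE 0.12, adjusted p = 3.98e-06), a group wholly below the controls. The ob levels were 423 to 553 CPM (median 518) untreated, 380 to 474 CPM (median 423) at 0.5 mg/kg and 227 to 462 CPM (median 259) at 2 mg/kg (log2 change -0.77, SE 0.12, adjusted p = 2.41e-06), where 5 of 6 libraries at 2 mg/kg lay below all controls and replicate 5 did not. Without that library the change was -0.94 (adjusted p = 3.72e-11). The ob change at 0.5 mg/kg was not called with all libraries and was called without that library, at -0.25 (adjusted p = 0.0372). The response at 2 mg/kg did not differ detectably between the types (log2 change 0.01, SE 0.16, adjusted p = 0.986).

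Few other genes of the degradation machinery were called. Edem1, which removes mannose from misfolded glycoproteins, stood at 124 to 161 CPM (median 141) in b6j controls and 113 to 133 CPM (median 122) at 2 mg/kg (log2 change -0.20, SE 0.07, adjusted p = 0.0471), a call that ended without any 1 of 13 libraries, 11 of them b6j, and under scaling by library size alone (-0.1, adjusted p = 0.304). In ob mice the level was 82.8 to 109 CPM (median 101) untreated and 83.8 to 112 CPM (median 100) at 2 mg/kg (log2 change 0.01, adjusted p = 0.954). The ubiquitin ligase gene Syvn1 and its partner Sel1l were not called against controls at any dose with all libraries.

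Xbp1, the transcription factor that IRE1 activates by splicing, was not called against controls in either type with all libraries. It stood at 113 to 171 CPM (median 143) in b6j controls and 96.5 to 138 CPM (median 116) at 2 mg/kg (log2 change -0.29, adjusted p = 0.144), and 104 to 120 CPM (median 114) in ob controls and 91.3 to 180 CPM (median 98) at 2 mg/kg (log2 change -0.03, adjusted p = 0.875). Gene counts do not separate its spliced from its unspliced form. Without the pair of libraries that stood apart it was lower in b6j at 2 mg/kg, at -0.35 (adjusted p = 0.0138). At 0.5 mg/kg the b6j libraries held 105 to 192 CPM (median 160).

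Of the small secreted products, Creld2 fell in b6j at 2 mg/kg, with 36.7 to 52 CPM (median 43.4) untreated and 27.6 to 30.1 CPM (median 28.8) at 2 mg/kg (log2 change -0.60, SE 0.11, adjusted p = 0.000117), with no overlap. Levels in ob were 32 to 40.2 CPM (median 36.4) untreated and 23.3 to 46.9 CPM (median 28.9) at 2 mg/kg (log2 change -0.21, adjusted p = 0.146), and without replicate 5 the change was -0.35 (adjusted p = 0.00226). Manf, a trophic factor released on ER calcium loss, fell in b6j, with 38.8 to 65.9 CPM (median 46.5) untreated and 35.3 to 40.4 CPM (median 36.8) at 2 mg/kg (log2 change -0.36, SE 0.1, adjusted p = 0.0115), and the change without b6j control replicate 3 was -0.24 (adjusted p = 0.0692). Among ob libraries it stood at 46.3 to 56.9 CPM (median 51.8) untreated and 38.1 to 62.8 CPM (median 43.8) at 2 mg/kg (log2 change -0.16, adjusted p = 0.245), and the change was -0.26 (adjusted p = 0.0289) without replicate 5. Manf overlaps Dcaf1 and Rbm15b between gene start and end, as Pdia6 does Atp6v1c2 and Syvn1 does Mrpl49. Reads from any exon bases such genes share cannot be told apart, and whether they share any was not tested. The 6 genes of the ER arm not described by level (Canx, Pdia3, Pdia4, Hyou1, Sel1l and Syvn1) ranged from -0.24 to 0.17 over the 4 comparisons.

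Of the 3 sensor genes, 2 were called, both in ob at 2 mg/kg, where 20.4% of all genes were called higher and 18% lower. Eif2ak3, which encodes PERK, rose at 2 mg/kg, with 33.7 to 42.1 CPM (median 37.7) untreated and 40.7 to 87.2 CPM (median 47.4) at 2 mg/kg (log2 change 0.48, SE 0.11, adjusted p = 0.000847), and the change was 0.28 (adjusted p = 0.0012) without replicate 5. Atf6 fell, with 55 to 60.5 CPM (median 58.2) untreated and 42.7 to 54.9 CPM (median 50.2) at 2 mg/kg (log2 change -0.22, SE 0.07, adjusted p = 0.0105), all 6 libraries lying below the controls, and missed the threshold when only the groups compared were fitted (-0.21, adjusted p = 0.0599). In b6j at 2 mg/kg the changes were 0.11 (adjusted p = 0.514) and -0.12 (adjusted p = 0.219). Ern1 (IRE1) was not called, at 0.13 (adjusted p = 0.313) in b6j and -0.03 (adjusted p = 0.844) in ob. The differences of the responses between the types were 0.36 (adjusted p = 0.222) for Eif2ak3 and -0.10 (adjusted p = 0.627) for Atf6.

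Between 0.5 and 2 mg/kg in b6j, 7 ATF4 arm genes were higher and 1 lower, and 10 ER arm genes were lower and none higher, with 17.3% of all genes called in either direction. Hspa5, Hyou1, Xbp1 and Sel1l, which were not called against controls, were among the 10, and Hspa5 was lower at 2 mg/kg (log2 change -0.45, SE 0.14, adjusted p = 0.0264). The Hspa5 call ended without replicate 6 at 0.5 mg/kg or replicate 2 at 2 mg/kg (adjusted p = 0.0589 to 0.0708), and the Xbp1 call without any 1 of 8 libraries, replicates 1, 2, 3 and 6 at 0.5 mg/kg and 3, 4, 5 and 6 at 2 mg/kg. The 10 became 5 without replicate 6 at 0.5 mg/kg and 2 under scaling by library size alone. With 1 library left out the ATF4 arm calls ran from 4 to 11. The lowest came without b6j replicate 6 at 0.5 mg/kg or 1 or 6 at 2 mg/kg, the highest without ob replicate 5 at 2 mg/kg. The Asns call ended without any 1 of 27 libraries and the Phgdh call without any 1 of 11. In ob 7 ATF4 arm genes were higher at 2 than at 0.5 mg/kg, 2 ER arm genes (Dnajb9 and Sdf2l1) were higher and Herpud1 was lower, with 29.7% of all genes called. Without replicate 5 of the ob group at 2 mg/kg, with 27.6% of all genes called, Chac1, Atf3, Ppp1r15a and Dnajb9 were no longer called in that comparison, at 0.80 (adjusted p = 0.132), 1.38 (adjusted p = 0.0531), 0.34 (adjusted p = 0.0881) and 0.18 (adjusted p = 0.0562). Both comparisons share their 2 mg/kg libraries with those against controls.

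In untreated kidney, every called gene of both arms was lower in ob than in b6j. Of the ATF4 arm 7 genes were lower in ob than in b6j controls and none was higher (median -0.47), and of the ER arm 8 were lower and none higher (median -0.27), where 8.93% of all genes were called lower and 6.6% higher. The ER arm differences did not rest on the control that stood apart. Dnajb11 (log2 change -0.59, SE 0.08, adjusted p = 4.38e-07), Edem1 at -0.50, Calr at -0.46 and Hyou1 at -0.42 were lower in all 6 ob controls than in every b6j control, and 8 ER arm genes were lower also without b6j replicate 4. Over all 40 genes 8 did not overlap between the untreated groups, against 13.3% of all genes. Without both libraries that stood apart, where 25.5% of all genes were called, 11 ER arm genes were lower and Herpud1 was higher in ob, at 0.27 (adjusted p = 0.0143).

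Most calls of the ATF4 arm did rest on it. Without b6j control replicate 4, where 14.7% of all genes were called, 2 of the 7 calls were left, Asns at -0.59 (adjusted p = 0.0258) and Shmt2 at -0.54 (adjusted p = 0.015), and the median was -0.09. Trib3 turned from -1.60 (adjusted p = 0.0262) to 0.02 (adjusted p = 0.98), Atf3 went from -1.81 to -0.11 (adjusted p = 0.909), Mthfd2 from -0.88 to -0.10 (adjusted p = 0.727), Atf5 was no longer called, and Gdf15 went from -0.91 to -0.51 (adjusted p = 0.103). Without both libraries 5 genes were lower, Asns, Shmt2, Sesn2 (log2 change -0.53, adjusted p = 0.0263), Psat1 (log2 change -0.45, adjusted p = 0.0147) and Gdf15 (log2 change -0.51, adjusted p = 0.0276). That is 26.3% of the arm, all of it lower. Of all genes 25.5% were called, a share that pools higher and lower.

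Genes beside the 40 that belong to the same pathways were counted from 5 lists. Those named from each list are called genes with the smallest p against controls, so they do not show a list as a whole. Of 22 other ATF4 targets, 10 rose and none fell in b6j at 2 mg/kg, 7 rose in ob at 0.5 mg/kg, and 11 rose and 2 fell in ob at 2 mg/kg. Of all genes, 12.3% rose and 11.4% fell in b6j at 2 mg/kg, 3.55% rose in ob at 0.5 mg/kg, and 20.4% rose and 18% fell in ob at 2 mg/kg. The median log2 change of the 22 at 2 mg/kg was 0.54 in b6j and 0.48 in ob, where the changes ran from -1.37 to 8.29. The amino acid transporter gene Slc1a4 stood at a log2 change of 1.04 (SE 0.17, adjusted p = 1.05e-05) in b6j and 2.36 (SE 0.17, adjusted p = 6.67e-13) in ob at 2 mg/kg, the folate enzyme gene Aldh1l2 at 1.18 (SE 0.24, adjusted p = 0.000267) and 2.81 (SE 0.25, adjusted p = 5.75e-11), and the proapoptotic gene Bbc3 (PUMA) at 1.32 (SE 0.19, adjusted p = 1.91e-06) and 2.09 (SE 0.19, adjusted p = 1.51e-10). Of 12 cytosolic aminoacyl-tRNA synthetases, 8 rose with the higher dose in b6j, and in ob 4 rose with the lower and 8 with the higher dose; none fell, beside the same shares of all genes. Lars stood at 0.43 (SE 0.06, adjusted p = 1.16e-06) and 0.52 (SE 0.06, adjusted p = 1.84e-08) at 2 mg/kg, Mars at 0.38 (SE 0.07, adjusted p = 0.000182) and 0.62 (SE 0.07, adjusted p = 2.6e-08), and Aars at 0.25 (SE 0.08, adjusted p = 0.0137) and 0.64 (SE 0.08, adjusted p = 3.39e-08).

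Upstream of ATF4, 12 genes of the eIF2 kinases, eIF2 and eIF2B gave 2 higher and 2 lower in b6j and 4 higher and 3 lower in ob at 2 mg/kg. Over all genes 12.3% were higher and 11.4% lower in b6j, and 20.4% higher and 18% lower in ob. The constitutive eIF2 phosphatase subunit Ppp1r15b fell in both, at -0.27 (SE 0.05, adjusted p = 9.51e-05) and -0.14 (SE 0.05, adjusted p = 0.0201), and the eIF2 subunit gene Eif2s3x rose in both, at 0.25 (SE 0.07, adjusted p = 0.0103) and 0.33 (SE 0.07, adjusted p = 0.000361). Eif2s2 stood at 0.14 (SE 0.12, adjusted p = 0.457) in b6j and 0.45 (SE 0.12, adjusted p = 0.00278) in ob.

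Further ER genes gave few calls in b6j, where 12.3% of all genes rose and 11.4% fell at 2 mg/kg, against 20.4% and 18% in ob. Of 24 further folding and degradation genes, 2 rose and none fell in b6j, and 7 rose and none fell in ob at 2 mg/kg, among them the glucosyltransferase gene Uggt1 at 0.32 (SE 0.06, adjusted p = 0.000168), the isomerase gene P4hb at 0.31 (SE 0.07, adjusted p = 0.00113) and Hspa13 at 0.27 (SE 0.08, adjusted p = 0.00608). Without the pair of libraries that stood apart, 3 of them were lower in b6j, where 35.1% of all genes were then called in either direction. Of 19 genes of protein translocation and processing at the ER, 4 fell in b6j, and in ob 9 rose and 3 fell. The translocon gene Ssr3 stood at 0.21 (SE 0.09, adjusted p = 0.0793) in b6j and 0.63 (SE 0.09, adjusted p = 4.9e-07) in ob, Rpn1 of the oligosaccharyltransferase at -0.38 (SE 0.06, adjusted p = 8.05e-06) and -0.28 (SE 0.06, adjusted p = 0.00031), and Sec62 at -0.15 (SE 0.06, adjusted p = 0.0709) and -0.28 (SE 0.06, adjusted p = 0.000591).

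Markers of other cells moved with the dose as well. At 2 mg/kg 4 of 12 proximal tubule markers fell in b6j and 7 in ob, 6 of 8 macrophage markers rose in b6j and 7 in ob, where 1 fell, and 5 of 8 tubular injury markers rose in b6j and all 8 in ob. Of 8 distal nephron and collecting duct markers, 2 fell in b6j and 7 in ob, at medians of -0.15 and -0.77. Of all genes 12.3% rose and 11.4% fell in b6j, and 20.4% rose and 18% fell in ob. The macrophage sum ran from 182 to 266 CPM in b6j at 2 mg/kg against 148 to 182 in controls. In ob it ran from 107 to 442 CPM against 140 to 165, where the lowest was replicate 5 and the other 5 held 242 to 442 CPM. All 8 macrophage markers averaged at least 1 CPM in every group, and all 8 neutrophil markers were under 1 CPM in every group mean. Plasma and B cells, which carry a large ER, summed to 25.5 to 79.4 CPM in b6j and 5.73 to 274 CPM in ob at 2 mg/kg, against 27.3 to 69.4 and 26.9 to 51 in controls. In ob at 2 mg/kg the lowest was replicate 5, the highest replicate 1, and the rest held 26.6 to 46.4 CPM. Of 8 fat markers 3 rose in b6j (median 2.14), with sums of 175 to 514 CPM against 162 to 258 in controls, and 1 in ob, with sums of 143 to 772 CPM, the highest in replicate 5, against 126 to 271. Adrenal markers summed to 104 CPM in replicate 3 of b6j at 2 mg/kg and to 3.63 to 4.89 CPM in the other 5, against 3.39 to 4.79 in controls, and 3 of the 3 tested were called higher with all libraries. Their part in the changes of the 40 genes was not tested.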

How the data were processed

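Kidney RNA was sequenced in 36 libraries. The deposited files hold raw read counts per gene, which the authors made with featureCounts 1.4.6-p2 without strand, per the file headers, and the submitters' processing notes name STAR, Trimmomatic, FastQC, bcl2fastq, GRCm38 and Ensembl 96. All 55536 gene identifiers were given symbols from GENCODE mouse release 21, and 36 columns of a joined table were not used.

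One edgeR model held the 6 group means of the 36 libraries (edgeR 4.0.16, R 4.3.3), after filterByExpr and trimmed-mean scaling (factors 0.892 to 1.122), with quasi-likelihood tests of 9 contrasts and Benjamini-Hochberg adjustment over 18180 genes. The SE is the log2 change over the root of F. Alternatives were DESeq2 1.42.0, limma 3.58.1 with sample weights, other scalings and filters, the compared groups alone, a replicate block and each library left out. The test was also run on simulated counts. These held no library that stood apart, so that run does not bear on calls that rest on such libraries. Genes given by level are those called in any comparison of a dose with its controls or in a difference between the types, and 8 set by name; the other 11 are given by range. The members and lists were chosen with earlier results of these data known.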

Additional observations from a re-analysis of the deposited data

Results flagged for a closer look

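Of 240 groups of 6 libraries, 1 group for each of the 40 genes in each condition, 43 held a library farther from its neighbour than Dixon's 95% limit allows, where chance gives about 1 in 20. Replicate 5 of the ob group at 2 mg/kg gave 16 of these and replicate 4 of the untreated b6j group 10, and the other 17 were spread over 8 libraries. In the ob library, 14 genes were the highest of the group, namely Atf4 at 163 CPM, Chac1 at 12.6, Atf3 at 28.5, Ppp1r15a at 69.5, Psat1 at 173, Gdf15 at 147, Ddit4 at 96.4, Hspa5 at 1030, Pdia3 at 635, Dnajb9 at 210, Xbp1 at 180, Creld2 at 46.9, Ern1 at 42.1 and Eif2ak3 at 87.2 CPM. Atf5, at 7.42 CPM, and Calr, at 376 CPM, were the lowest. In the b6j control all 10 were the highest of the group and all belong to the ATF4 arm: Atf4 at 149 CPM, Trib3 at 16.3, Asns at 33.4, Chac1 at 9.42, Atf3 at 23.5, Atf5 at 43.6, Ppp1r15a at 23.3, Mthfd2 at 26.1, Fgf21 at 0.497 and Gdf15 at 27.3 CPM.

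Among the other libraries, ob control replicate 6 was the highest for Phgdh, at 24.1 CPM, and the lowest for Hsp90b1 at 196, Canx at 383 and Dnajb9 at 45.8 CPM. Replicate 6 of b6j at 0.5 mg/kg was the highest for Ddit4 at 25.5 and Pdia6 at 255 CPM and the lowest for Atf6 at 54.3 CPM. Replicate 6 of b6j at 2 mg/kg was the highest for Atf5 at 21.4, Calr at 567 and Dnajb11 at 98.5 CPM. Untreated b6j replicate 3 was the highest for Manf at 65.9 and Sel1l at 147 CPM, and replicate 2 for Nupr1 at 30.5 CPM. Replicate 1 of ob at 0.5 mg/kg was the lowest for Vldlr at 105 and Sel1l at 99.6 CPM, and replicate 6 the highest for Pdia3 at 454 CPM. Replicate 3 of b6j at 0.5 mg/kg was the highest for Sdf2l1 at 14.2 CPM.

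The response differed between ob and b6j by edgeR's test for Gdf15 at 0.5 mg/kg, by 1.98 on the log2 scale (adjusted p = 0.0026), and for Dnajb11 at 2 mg/kg, by 0.46 (adjusted p = 0.0174).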

How the results depend on the processing

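Counts of the 40 genes called depended on the alternatives as follows, and the cause was not tested except where fewer libraries or genes entered by construction. The share of all genes called moved as well. Without both libraries that stood apart it went from 0.325% to 0.91% in b6j at 0.5 mg/kg and from 23.7% to 35.1% at 2 mg/kg. In ob it went from 4.28% to 9.9% at 0.5 mg/kg and stayed at 38.4% at 2 mg/kg. For the difference between the types it went from 0.385% to 1.31% at 0.5 mg/kg and from 2.07% to 4.81% at 2 mg/kg. In b6j at 0.5 mg/kg the count of 0 became 5 without both libraries that stood apart, an alternative added after the data were seen. In b6j at 2 mg/kg 14 became 26 with limma's sample weights and 26 without both libraries, and leaving out 1 library gave 9 to 23, the lowest without b6j control replicate 3 or 6 and the highest without ob replicate 5 at 2 mg/kg. The lower dose in ob went from 4 to 7 with DESeq2, 16 with limma, 16 when only the compared groups were fitted and 15 without both libraries, and 2 to 10 with 1 library left out, the 2 without any of ob controls 1 to 5 or replicate 5 at 0.5 mg/kg. At the higher dose in ob, leaving out 1 library gave 18 to 23. Between the doses in b6j 18 became 9 with library size alone, and 9 to 25 with 1 library left out, the lowest without b6j replicate 6 at 0.5 mg/kg, and in ob the range was 7 to 13, the lowest without replicate 5 at 2 mg/kg. Between the untreated groups it was 10 to 22, the lowest without b6j control replicate 4. The difference between the types at 0.5 mg/kg went from 1 to 3 with limma. At 2 mg/kg it went from 1 to 6 with DESeq2, 5 with limma, 3 with relative log scaling, 3 with the stricter filter, 6 without both libraries and 1 to 4 with 1 library left out.

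The signs of 5 genes turned. Without both libraries Trib3 stood at 1.06, Asns at 0.72 and Mthfd2 at 0.53 in b6j at 0.5 mg/kg, and Chac1 at -1.10 in the difference between the types at 2 mg/kg. Hspa5 in ob at 2 mg/kg turned to -0.27 with limma and to -0.23 without both libraries or without replicate 5 alone (-0.23 to 0.12 over single libraries left out). Trib3 between the untreated groups turned to 0.02 without both libraries or without b6j control replicate 4 (-1.82 to 0.02).

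With library size alone the median over all genes moved to 0.119 in b6j at 2 mg/kg and -0.11 in ob at the lower dose, and the split of all genes called in b6j at 2 mg/kg went from 2232 higher and 2073 lower to 3463 and 1262. Same-numbered libraries share only a number: their deviations correlated at a median r of 0 (-0.306 to 0.363 over 90 pairs), and 8 of 36 libraries correlated best with their own number. With the replicate number as a block the difference between the types at 2 mg/kg had 2 genes called. Under the block Fgf21 (adjusted p = 0.0547) and Edem1 (0.0527) in b6j at 2 mg/kg and Ddit3 (0.0815) in ob at 0.5 mg/kg missed the threshold. With no filter on low counts Psph (0.0811), Fgf21 (0.0816) and Edem1 (0.0802) did in b6j at 2 mg/kg.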
